A study of Mus musculus with 16 samples.

Results

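The 9 immediate early genes described here are Fos, Jun, Junb, Egr1, Klf6, Myc, Ccn1, Ier2 and Ier3. They were chosen by name, as the probe sets that the array annotation assigns to 1 of these symbols alone. That rule gave 12 of the 12488 probe sets on the array and 9 of the 8252 genes with a single-symbol probe set. Fos, Junb and Egr1 had 2 probe sets each and the other genes 1 each. RNA was measured in 16 mouse samples, 1 Affymetrix U74Av2 array each: 12 of embryonic stem (ES) cells in 4 groups of 3, and 4 of liver in 2 groups of 2. The ES groups were Abca1 +/- cells, their +/+ parental line ESVJ, Cdk4 +/- cells and their +/+ control line E14. Abca1 +/- and ESVJ cells had grown on irradiated embryonic fibroblasts, were freed of these feeders and spent about 2 days on gelatin, and their RNA was isolated with Trizol and RNeasy. E14 and Cdk4 +/- cells had grown without feeders, and RNeasy alone was used. Frozen livers came from +/+ mice and from mice labelled Abca1 +/-, both of a background mixed from C57BL6/J and 129/SvJ, and their RNA was isolated with RNeasy. The labels give no age or sex of the mice, do not say whether a mutated line is a single clone, and do not say whether arrays of a group came from separate cultures or animals. Replicate numbers were assigned here by listing order and only name an array. All p-values therefore measure the spread between these samples, which may be technical.

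Immediate early genes are switched on within minutes when a cell meets serum, growth factors or stress, and their induction needs no new protein synthesis. Kinase cascades act on factors already bound at their promoters, such as SRF and CREB, and the transcripts decay quickly. Fos, Jun and Junb encode subunits of the dimeric factor AP-1, Egr1 and Klf6 encode zinc finger factors and Myc a helix-loop-helix factor that pairs with Max. Ccn1 encodes a secreted matrix protein that binds integrins, Ier2 a nuclear protein and Ier3 a protein linked to cell survival.

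The sequences directly before the start sites are shown for Fos, Jun, Junb, Ccn1 and Klf6, because the signals of Jun, Junb, Ccn1 and Klf6 split the ES lines, and Fos is the partner of the Jun proteins in AP-1. The table of RefSeq promoters used here (GRCm38.p6) held an entry for 6 of the 9 genes, and each sequence below covers the 250 bases before the start, 5′ to 3′ on the strand of the gene. Capitals mark TGACNTCA or TGACGT (forms of the CREB/ATF element), TATAAA and CCAAT, searched on both strands.
Fos, chr12:85473640-85473889, plus strand: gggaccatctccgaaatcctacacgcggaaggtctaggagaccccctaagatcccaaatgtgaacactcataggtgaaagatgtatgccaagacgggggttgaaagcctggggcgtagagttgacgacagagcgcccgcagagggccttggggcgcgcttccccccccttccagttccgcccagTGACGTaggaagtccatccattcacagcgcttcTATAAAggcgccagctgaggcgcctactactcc
Jun, chr4:95052223-95052472, minus strand: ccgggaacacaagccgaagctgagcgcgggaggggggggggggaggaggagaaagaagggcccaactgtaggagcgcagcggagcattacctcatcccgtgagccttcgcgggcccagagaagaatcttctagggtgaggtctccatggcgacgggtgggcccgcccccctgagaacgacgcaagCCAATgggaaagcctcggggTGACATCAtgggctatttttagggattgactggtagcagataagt
Junb, chr8:84978749-84978998, minus strand: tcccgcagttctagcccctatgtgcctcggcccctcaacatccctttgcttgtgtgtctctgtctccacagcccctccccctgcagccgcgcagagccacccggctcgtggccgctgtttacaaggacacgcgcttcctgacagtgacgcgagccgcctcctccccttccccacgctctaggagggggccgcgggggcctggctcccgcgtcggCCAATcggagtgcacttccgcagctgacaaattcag
Ccn1, chr3:145649986-145650235, minus strand: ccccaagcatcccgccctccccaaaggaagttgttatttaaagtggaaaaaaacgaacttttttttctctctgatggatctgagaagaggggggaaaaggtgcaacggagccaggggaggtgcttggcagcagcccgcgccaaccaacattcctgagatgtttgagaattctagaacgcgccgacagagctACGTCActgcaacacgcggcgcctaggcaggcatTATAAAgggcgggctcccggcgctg
Klf6, chr13:5861239-5861488, plus strand: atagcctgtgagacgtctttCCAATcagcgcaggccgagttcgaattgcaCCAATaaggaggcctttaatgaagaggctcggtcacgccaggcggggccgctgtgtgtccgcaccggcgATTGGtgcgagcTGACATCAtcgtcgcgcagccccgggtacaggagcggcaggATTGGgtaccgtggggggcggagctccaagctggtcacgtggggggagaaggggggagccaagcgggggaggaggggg

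TGACNTCA occurred in the Jun window 45 bases before the start and in the Klf6 window 119 bases before it, and 7.49% of 32851 RefSeq promoter windows of this length held it. TGACGT, which overlaps TGACNTCA where N is G, occurred 66 bases before the start of Fos and, on the other strand, 59 bases before that of Ccn1, against 6.47% of windows. TATAAA occurred in Fos and Ccn1, 33 and 25 bases before the start, and in 12.4% of windows. CCAAT occurred in Jun, Junb and Klf6, and in Ier3, whose window is not shown, against 33.8% of windows. The AP-1 letters TGANTCA (6.75% of windows) and the CArG box bound by SRF (1.47%) were not in any of the 6 windows searched. These matches describe letters in a short window, and the motifs were chosen after the sequences had been seen.

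Signals are Affymetrix MAS5.0 intensities, set here to a trimmed mean of 500 on every array. Median signals then lay between 126 and 170, and the number of arrays, not a read depth, limits the precision. The tissue labels fitted their markers. The summed signal of 10 pluripotency genes was 33921 to 64406 on ES arrays and 571 to 832 on liver arrays, and that of 9 hepatocyte genes was 928 to 1645 and 178022 to 236291. Cdk4 was lower in all 3 Cdk4 +/- arrays than in all 3 E14 arrays, at 3448 to 3854 against 5498 to 5827 on the brighter of its 2 probe sets and 820.3 to 1201 against 1350 to 2068 on the dimmer. Abca1 did not follow the liver label. One of its 2 probe sets read 699 and 555 in the livers labelled Abca1 +/- and 327 and 301 in the +/+ livers, while the other read 41.5 and 161 against 295 and 140.3, which overlap. In ES cells Abca1 read 94.0 to 123 in Abca1 +/- and 102 to 178 in ESVJ on the first of these. Where the probes lie relative to either mutation is not given in the sources used here, and every direction in liver refers to the libraries as labelled.

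Of the 12 probe sets, 10 were bright enough to be tested in the ES comparisons, which required a mean signal of at least 100 over the 12 ES arrays. The second probe sets of Fos and Egr1 read 24.3 to 74.9 and 5.26 to 96.7 in ES cells and were not tested. Log2 differences are on the log2(signal + 32) scale, which understates changes of dim genes, and folds are derived from them. They were tested with limma, with Benjamini-Hochberg adjustment across the 7349 probe sets, and "passed" means an adjusted p under 0.05. Folds of different probe sets can be set side by side, but their signals cannot, since probes differ in brightness.

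**Figure D1:**
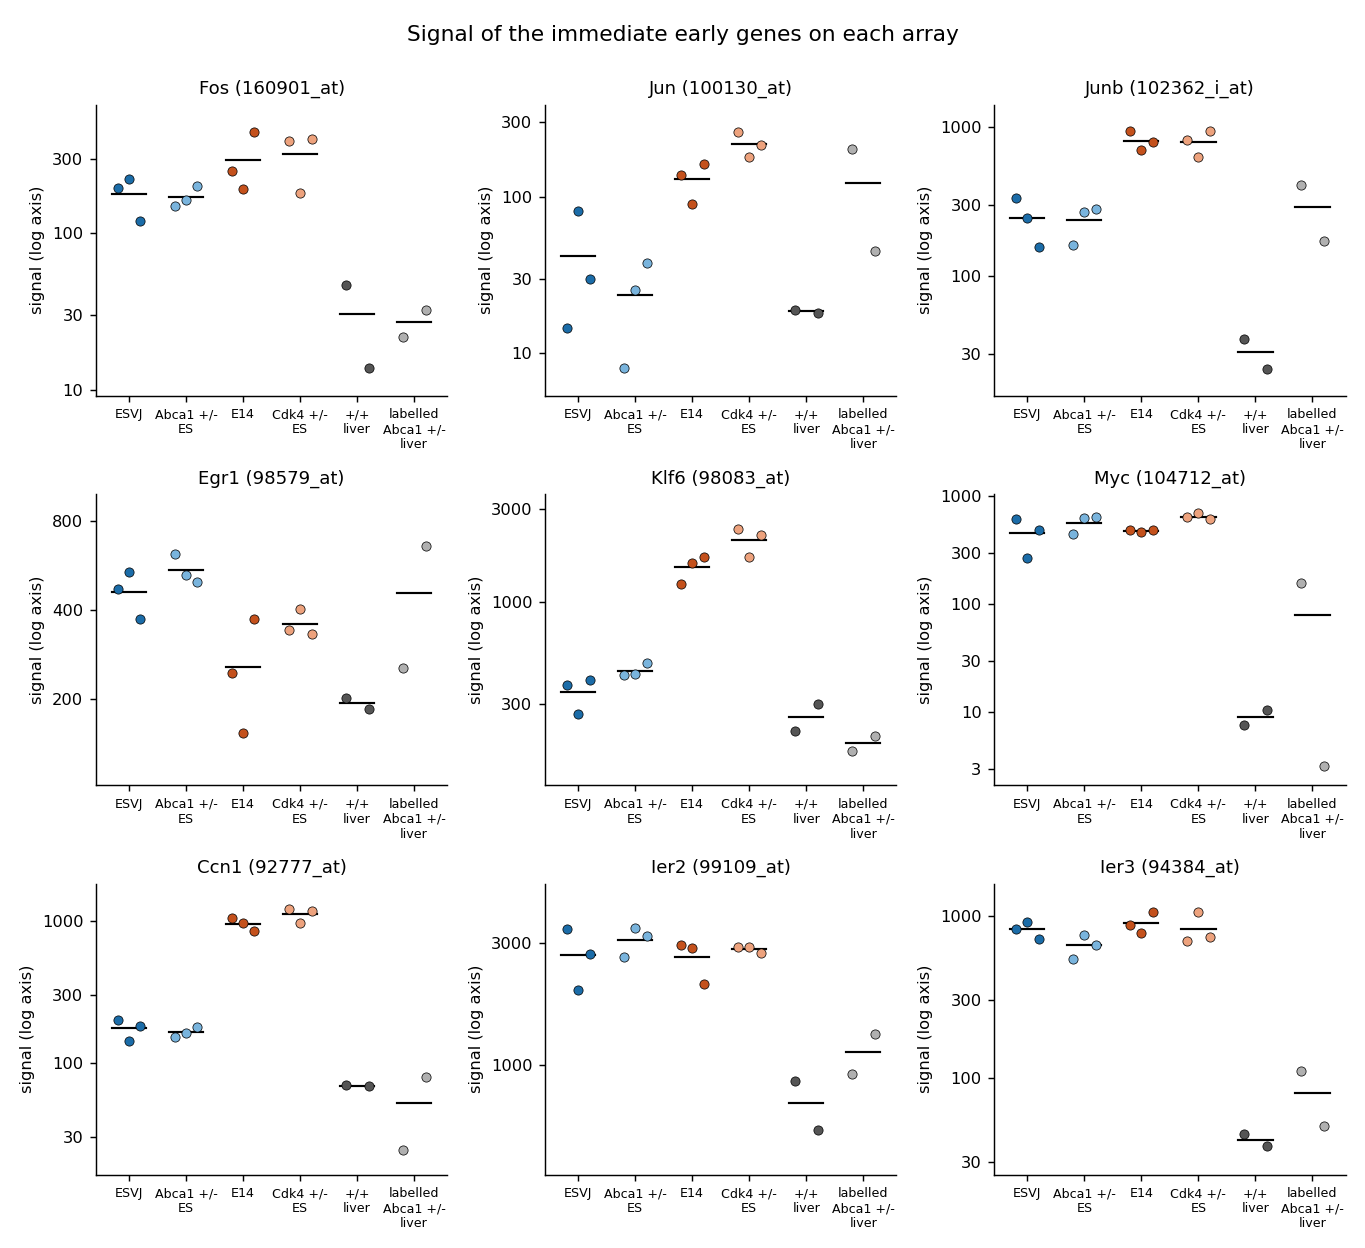
Signal of the immediate early genes on each of the 16 arrays (log axes that differ between panels), 1 panel per probe set; points are arrays and bars group means. Ccn1, Klf6 and Junb (_i_at) lie higher on all 6 feeder-free ES arrays than on all 6 feeder-grown ones, while Ier2 and Ier3 lie lower on the liver arrays than on the ES arrays.

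The strongest pattern in ES cells was a split between the 2 +/+ lines. Of 10 probe sets tested, 5 were higher in E14 than in ESVJ (Ccn1, Klf6, Jun and both of Junb), 1 was lower (Egr1), and those of Fos, Ier2, Ier3 and Myc did not pass. Across the array 42.6% of probe sets passed in this comparison, 19.8% higher and 22.8% lower, so a passing call by itself is common here. The median log2 difference of the 10 was 0.66, and -0.09 over all probe sets tested. Jun reached the filter only through the feeder-free lines, so it had to differ and lends no support to these counts. With a filter at 200, which leaves Jun out, 5 of 9 passed. The groups did not overlap for the same 6 probe sets, against 52% of all tested, 23.1% higher and 28.9% lower. ESVJ and E14 differ in line, in feeder culture and in RNA isolation, and these cannot be told apart.

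Among the AP-1 genes, Junb showed the split on both probe sets. The probe set with the suffix _i_at read 936, 694 and 788 in E14, 813, 625 and 935 in Cdk4 +/-, 331, 244 and 155 in ESVJ, and 162, 268 and 281 in Abca1 +/- cells. All 6 feeder-free arrays lay above all 6 feeder-grown ones. E14 exceeded ESVJ by a log2 difference of 1.65 (SE 0.24, adjusted p = 7.06e-05), or 3.13-fold. The other Junb probe set, with the suffix _r_at, read 1052, 667 and 766 in E14, 1177, 831 and 831 in Cdk4 +/-, 501, 477 and 467 in ESVJ, and 311, 419 and 534 in Abca1 +/- cells. Its groups were again apart, but its difference was smaller, at 0.72 (SE 0.20, adjusted p = 0.00969), and without E14 replicate 1 it was 0.54 (adjusted p = 0.0549). In Affymetrix names both suffixes mark probe sets designed under relaxed rules, and their sizes here differ while their direction does not.

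Jun was dim. It read 138, 89.7 and 161 in E14, 258, 180.1 and 215 in Cdk4 +/-, 14.4, 81.5 and 29.8 in ESVJ, and 8.03, 25.5 and 37.6 in Abca1 +/- cells. No feeder-grown array reached the lowest feeder-free one, although ESVJ replicate 2 came close. The E14 minus ESVJ difference was 1.21 (SE 0.32, adjusted p = 0.0079), 2.31-fold. Fos read 252, 193 and 445 in E14, 390, 182 and 402 in Cdk4 +/-, 194, 224 and 120.2 in ESVJ, and 149, 164 and 200.02 in Abca1 +/- cells. Its groups overlapped and its spread within groups was wide, so the difference of 0.60 did not pass (SE 0.30, 95% interval -0.05 to 1.25, adjusted p = 0.128).

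The zinc finger genes went opposite ways. Klf6 read 1232, 1583 and 1692 in E14, 2369, 1693 and 2192 in Cdk4 +/-, 377, 268 and 402 in ESVJ, and 424, 431 and 486 in Abca1 +/- cells. The lowest feeder-free array was more than double the highest feeder-grown one, and the difference of E14 from ESVJ was 2.02 (SE 0.17, adjusted p = 3.11e-07), 4.04-fold. Egr1 read 245, 154 and 373 in E14, 343, 404 and 332 in Cdk4 +/-, 471, 536 and 374 in ESVJ, and 616, 524 and 496 in Abca1 +/- cells. Here E14 lay below ESVJ, with E14 replicate 3 just under the lowest ESVJ array. Egr1 fell by 0.83 on the log2 scale (SE 0.23, adjusted p = 0.00904), 1.77-fold lower in E14.

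Ccn1, the secreted member, had the largest difference of the 10 between the +/+ lines. It read 1058, 972 and 849.6 in E14, 1233, 972 and 1184 in Cdk4 +/-, 201, 142 and 183 in ESVJ, and 152, 162 and 179 in Abca1 +/- cells. The arrays formed 2 tight groups, and E14 exceeded ESVJ by 2.26 (SE 0.15, adjusted p = 3.45e-08), 4.8-fold.

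Myc, Ier2 and Ier3 did not separate the lines. Myc read 489, 463 and 482 in E14, 633, 692 and 611 in Cdk4 +/-, 613.9, 269 and 484 in ESVJ, and 445, 625 and 634 in Abca1 +/- cells. Its groups overlapped (difference 0.13, SE 0.22, adjusted p = 0.65). Ier2 read 2954, 2878 and 2078 in E14, 2897, 2909.9 and 2751 in Cdk4 +/-, 3400.5, 1971 and 2728 in ESVJ, and 2647, 3426 and 3209 in Abca1 +/- cells, and E14 and ESVJ again overlapped (difference -0.02, SE 0.18, adjusted p = 0.949). Ier3 read 878, 779 and 1046 in E14, 699.6, 1049 and 741 in Cdk4 +/-, 830.1, 918 and 718 in ESVJ, and 542, 759 and 662 in Abca1 +/- cells (E14 minus ESVJ 0.12, SE 0.17, adjusted p = 0.589). The 95% intervals of the E14 minus ESVJ difference were -0.33 to 0.60 for Myc, -0.40 to 0.37 for Ier2 and -0.25 to 0.50 for Ier3, so moderate differences in either direction remain possible.

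The same split could be read in the mutated lines, which share no array with E14 and ESVJ but share their line types. The ES groups were fitted together, so both comparisons rest on the same filter and estimate of spread. Line, feeder culture and RNA isolation differ together here too. Between Cdk4 +/- and Abca1 +/- cells, 5 of 10 probe sets were higher and 0 lower, and they were the same 5 as above. Across the array 40.5% passed, 19.4% higher and 21.1% lower. Jun had to differ here too, for the reason given above, and with a filter at 200, which leaves it out, 4 passed. The shares across the array again belong to the filter at 100. The differences were 2.56 for Ccn1 (SE 0.15, adjusted p = 7.83e-09), 2.19 for Jun (SE 0.32, adjusted p = 8.39e-05), 2.13 for Klf6 (SE 0.17, adjusted p = 1.68e-07), and 1.63 and 1.12 for the Junb probe sets _i_at and _r_at (adjusted p = 8.28e-05 and 0.000432). Egr1 was lower on every Cdk4 +/- array than on every Abca1 +/- array, at -0.56, but did not pass (adjusted p = 0.0616). It did pass as lower with quantile normalization (adjusted p = 0.0445), with a pseudocount of 100 (adjusted p = 0.0491) and with only these 2 groups fitted (adjusted p = 0.0119). Fos, at 0.75, did not pass either (adjusted p = 0.0625), although it did with only the 2 groups (adjusted p = 0.0482) and without Cdk4 +/- replicate 2 (1.08, adjusted p = 0.00764). This comparison was added after the data had been seen.

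**Figure D2:**
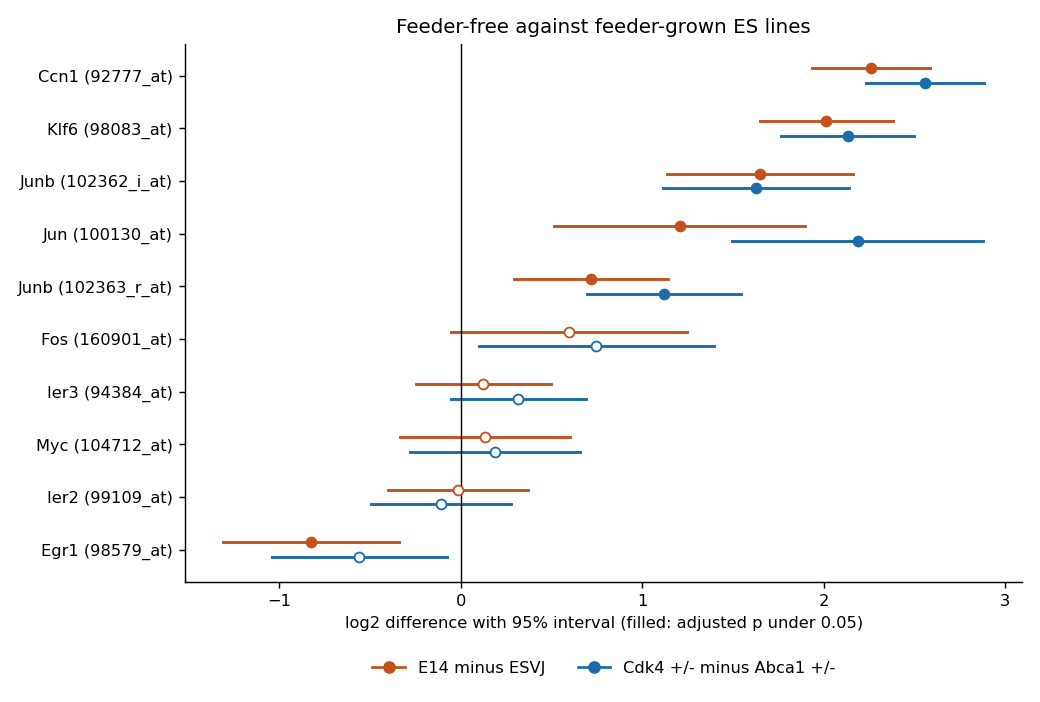
Log2 difference between feeder-free and feeder-grown ES lines for the 10 probe sets tested, with 95% intervals, for E14 minus ESVJ and for Cdk4 +/- minus Abca1 +/- cells; filled points passed at an adjusted p under 0.05. Ccn1, Klf6, Jun and both Junb probe sets lie to the right of 0 in both pairs, and Egr1 lies to the left in both, at -0.83 (adjusted p = 0.00904) and -0.56 (adjusted p = 0.0616).

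Markers of other states also differed between the line types. The summed pluripotency signal was 54948 to 64406 in the feeder-grown lines and 33921 to 46743 in the feeder-free ones. The 10 fibroblast feeder genes summed to 2243 to 2657 and 2392 to 3276. Of these, Col1a1 averaged 388 in ESVJ and 937 in E14, while Col1a2 averaged 1334 and 867. Only 4 of the 10 were bright enough to be tested between the ES lines. The sum over 8 endothelial and stellate genes was 1113 to 1366 in the feeder-grown lines and 4159 to 6313 in the feeder-free ones. Most of that rise was Acta2, smooth muscle actin, which averaged 653 in ESVJ and 4060.0 in E14. Of 3 genes of this list tested between those lines, 1 was higher in E14 and 0 lower, with a median of -0.46. The list as a whole thus did not rise. The ratios of 3′ to 5′ control probes, a measure of RNA integrity, overlapped between the line types. For Gapdh they were 0.80 to 0.98 in the feeder-grown and 0.90 to 1.19 in the feeder-free lines, and for actin 1.04 to 1.402 and 1.16 to 1.33. The BioB control signal read 1264, 269 and 239 in Abca1 +/- and 239, 259 and 1314 in ESVJ cells. It read 554, 761 and 745 in E14 and 728, 1405 and 552 in Cdk4 +/- cells. The part of these markers and controls in the split of the early genes was not tested.

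Genes that respond with the immediate early genes were described by fixed lists, by counts and medians, to be read against the 42.6% of all probe sets that passed, 19.8% higher and 22.8% lower. Among 20 other AP-1 and early transcription factors tested, 11 were higher in E14 than in ESVJ, 3 lower and 6 did not pass, with a median of 0.51 against -0.09 for all probe sets. The 4 with the smallest p were Id2, an inhibitor of helix-loop-helix factors (1.79, adjusted p = 7.91e-08), Cebpb, a leucine zipper factor (1.70, adjusted p = 0.000112), Tsc22d1 (0.97, adjusted p = 0.000231) and Fosl1, a Fos relative in AP-1 (1.47, adjusted p = 0.000839). Of 17 feedback phosphatase, mRNA decay and growth arrest genes, 9 were higher, 3 lower and 5 did not pass (median 0.36). They were led by Errfi1, an inhibitor of the EGF receptor (1.77, adjusted p = 3.53e-08), the stress genes Gadd45g (2.07, adjusted p = 2.02e-07) and Gadd45b (1.97, adjusted p = 6.94e-06), and Dusp1, a phosphatase that switches off MAP kinases (1.32, adjusted p = 7.03e-06). Of 14 early secreted, surface and signalling genes, 7 were higher, 3 lower and 4 did not pass (median 0.44). Plk2, a kinase (2.61, adjusted p = 1.57e-09), Phlda1 (2.91, adjusted p = 8e-08), Rhob, a small GTPase (2.09, adjusted p = 8.87e-07), and Hbegf, an EGF receptor ligand (1.66, adjusted p = 1.76e-06), had the smallest p. These calls held with each array left out in turn.

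Of 18 kinases and factors that induce early genes, 3 were higher, 3 lower and 12 did not pass (median -0.03). Mapkapk2, a kinase downstream of p38 (1.77, adjusted p = 1.1e-06), and Mapk7, which encodes ERK5 (0.85, adjusted p = 0.000255), were higher in E14. Of 11 genes of the Myc family and Max network, 2 were higher, 5 lower and 4 did not pass, and Max itself, the partner of Myc, fell by 0.62 (adjusted p = 0.00078). Of 22 genes often listed as Myc targets, 0 were higher, 12 lower and 10 did not pass (median -0.40). Pes1 and Nolc1, both of ribosome assembly, fell by 0.93 (adjusted p = 5.98e-05) and 1.30 (adjusted p = 0.000165) while the Myc difference itself was 0.13 and did not pass. Of 9 heat shock genes, 1 was higher, 4 lower and 4 did not pass, and with quantile normalization 2 were lower. Among the lower ones Hspd1 lost its call without ESVJ replicate 3 (adjusted p = 0.0588), and Hsp90aa1 without that array or E14 replicate 1 (adjusted p up to 0.0921).

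**Figure D3:**
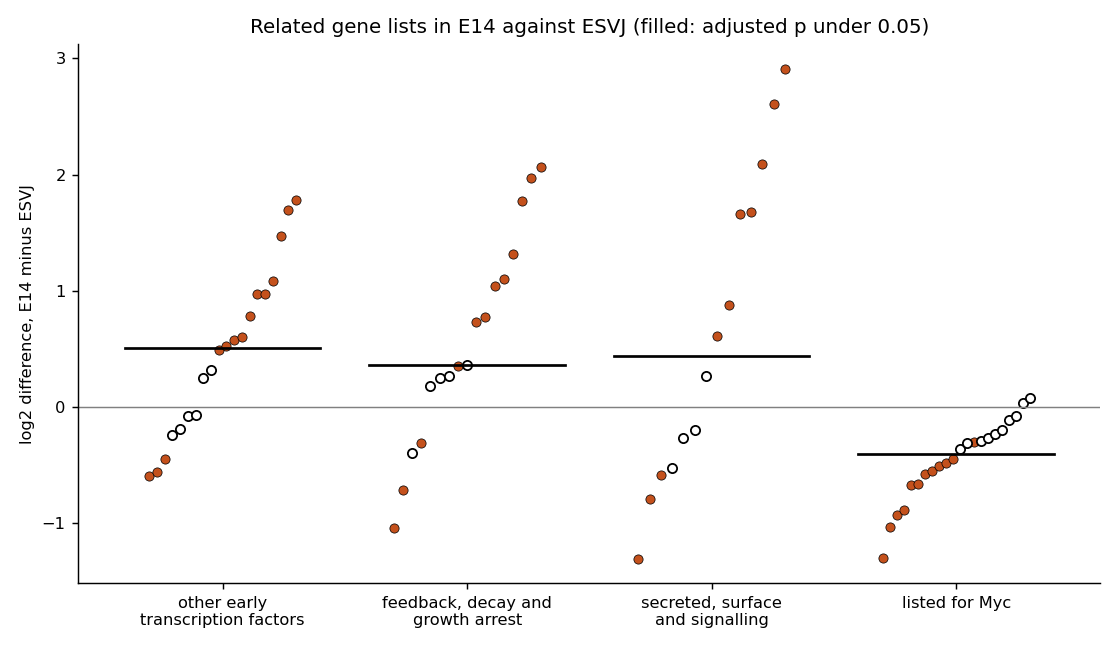
Log2 difference, E14 minus ESVJ, of the genes of 4 related lists; each point is a gene, filled at an adjusted p under 0.05, and bars mark list medians. The list of early transcription factors has a median of 0.51 and that of Myc targets -0.40.

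In the Cdk4 mutation, no immediate early gene passed: 0 of 10 against 4.91% of all probe sets, 2.59% higher and 2.33% lower (limma). At an unadjusted p under 0.05 there were 2, Klf6 and Egr1, against 1529 of 7349. Klf6, Jun and Myc, 3 of the 10, were higher on every Cdk4 +/- array than on every E14 array, while 13% of all probe sets were apart in that direction and 24.9% in either. Klf6 averaged 2085 ± 351 (SD, n = 3) in Cdk4 +/- and 1502 ± 240.4 (SD, n = 3) in E14 cells, a difference of 0.46 (SE 0.17, 95% interval 0.10 to 0.83, adjusted p = 0.139). Jun averaged 218 ± 39.1 and 129.9 ± 36.7, a difference of 0.64 (SE 0.32, adjusted p = 0.279). Myc averaged 645 ± 42.2 and 478 ± 13.1, a difference of 0.41 (SE 0.22, adjusted p = 0.317). Egr1, at 0.50 (SE 0.23, adjusted p = 0.221), passed only without E14 replicate 3, its highest E14 array (0.78, adjusted p = 0.0332). The other differences were 0.23 for Ccn1 (adjusted p = 0.433), 0.19 and -0.03 for the Junb probe sets (adjusted p = 0.646 and 0.957), 0.13 for Ier2 (adjusted p = 0.752), 0.12 for Fos (adjusted p = 0.876) and -0.13 for Ier3 (adjusted p = 0.743). On simulated data of this comparison a change of 0.5 was found in 20.4% of cases and one of 1 in 88%, so differences of the size seen here would mostly have been missed.

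Other early genes did pass between Cdk4 +/- and E14 cells. Of the 20 early transcription factors, 5 were higher and 15 did not pass (median 0.29 against 0.02 for all probe sets), namely Klf10, Klf4, Atf3, Bhlhe40 and Id3. Klf10, a Krüppel-like relative of Klf6, differed by 1.42 (adjusted p = 0.00012) and Klf4, also counted among the pluripotency markers, by 0.79 (adjusted p = 0.0075). Both passed with each array left out, while Atf3 passed in 4 of 6 such cases, Id3 in 3 and Bhlhe40 in 2. Of the 17 feedback genes, Gadd45a (1.02, adjusted p = 0.000396) and Errfi1 (0.59, adjusted p = 0.015) were higher and Socs1, an inhibitor of cytokine signalling, fell by 1.23 (adjusted p = 0.000706). Errfi1 passed in 3 of 6 cases with an array left out. Of the 14 secreted and signalling genes Tnc and Mcl1 were higher, and of the 18 upstream genes Map2k4 (0.82, adjusted p = 0.00862). Of the 22 Myc targets, Ppan, Bop1 and Cdk4 itself were lower and none higher (median -0.16). Mnt, a repressor in the Max network, was the 1 of 11 genes of that network that was higher (0.71, adjusted p = 0.031), and the chaperone gene Hspa1b the 1 of 9 heat shock genes that was lower (-1.46, adjusted p = 0.00436). Of these, Tnc passed in 4 of 6 cases with an array left out, Mcl1 and Bop1 in 2 and Mnt in 1.

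**Figure D4:**
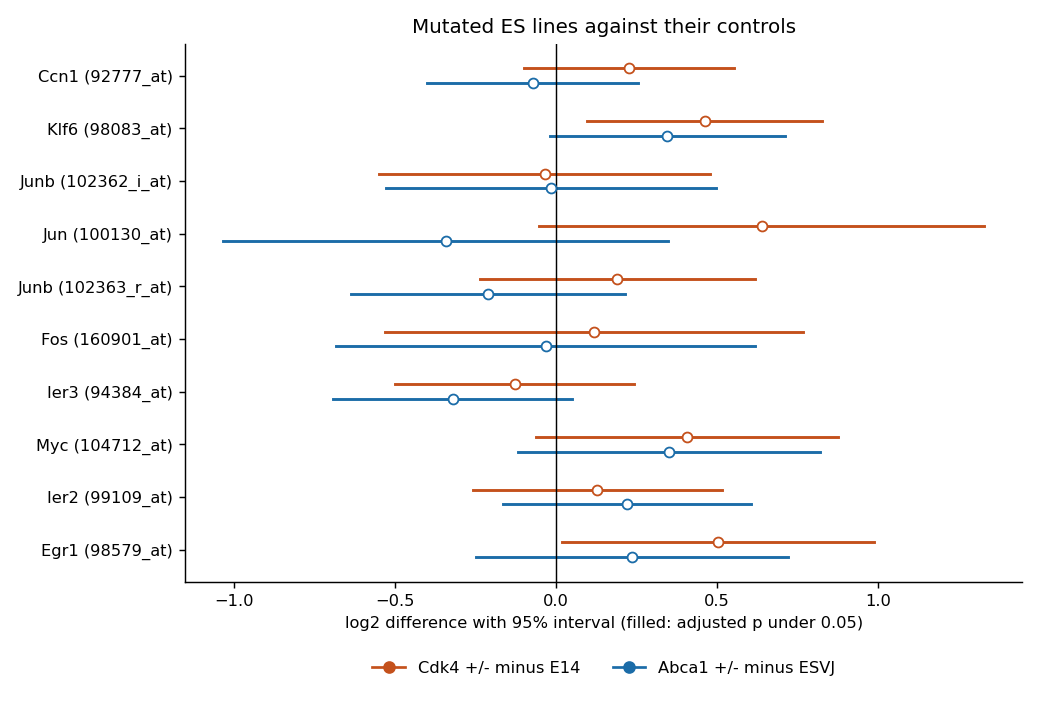
Log2 difference with 95% interval of each of the 10 probe sets for Cdk4 +/- minus E14 and Abca1 +/- minus ESVJ; no point is filled, since none passed. The interval of Klf6 for the Cdk4 mutation runs from 0.10 to 0.83, and most other intervals include 0.

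In the Abca1 mutation of ES cells 0 of 10 passed either, where 0.0272% of all probe sets did (limma), and 0 of 10 had an unadjusted p under 0.05, against 241 of 7349. Klf6 was the single one whose groups did not overlap, against 7.93% of all tested (3.93% higher and 4% lower), at 447 ± 34.0 (SD, n = 3) in Abca1 +/- and 349 ± 71.4 (SD, n = 3) in ESVJ cells, a difference of 0.35 (SE 0.17, 95% interval -0.02 to 0.71). Myc differed by 0.35, Ier3 by -0.32 and Jun by -0.34, with groups that overlapped. None of the 7 related lists had a gene that passed. A test of the difference between the Cdk4 and Abca1 effects called 0 of 10 (0.626% of all, 0.422% higher and 0.204% lower; 1 of 10 at an unadjusted p under 0.05, against 1120 of 7349). E14 stands in both the Cdk4 comparison and the comparison of the +/+ lines, so those differences are not independent. Side by side, Klf6 differed by 0.46 and 2.02 in them, Jun by 0.64 and 1.21 and Egr1 by 0.50 and -0.83.

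The 4 livers varied more than the ES arrays, with a median SE of 0.38 against 0.17. The immediate early genes that were bright enough to test there were Junb (both probe sets), Egr1, Ier2 and Klf6, 5 of the 12 probe sets. None passed between livers labelled Abca1 +/- and +/+ livers (limma, 7160 probe sets), where 0.014% of all did; 1 of 5 had an unadjusted p under 0.05, against 1321 of 7160. With 2 arrays a side all 5 were apart, 4 higher and 1 lower, but 51.7% of all probe sets were, 30.3% higher and 21.4% lower. In bulk tissue, fewer cells of a type and less RNA per cell cannot be told apart.

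Junb was the furthest apart. Its _i_at probe set read 38.0 and 23.6 in the +/+ livers and 408 and 172 in those labelled Abca1 +/-, a difference of 2.26 (SE 0.53, adjusted p = 0.113). It reached the filter only through the labelled livers, so it had to differ and lends no support to the counts above, and its +/+ level lies near the 32 added before taking logs. The labelled livers themselves differed widely, and so did the result when either was left out. Without replicate 2 the difference was 2.82, and without replicate 1 the probe set fell below the filter. With all 16 arrays in 1 fit the probe set passed (adjusted p = 0.000495). In that fit, which shares the smaller spread of the ES arrays, 1970 probe sets passed across the array, against 1 in the fit of livers alone. The _r_at probe set read 147 and 344.3 against 514 and 344.4, a gap of almost nothing between the nearest livers (0.80, SE 0.43, adjusted p = 0.342).

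Egr1 read 202 and 186 in the +/+ livers and 255 and 654 in the labelled ones (0.98, SE 0.44, adjusted p = 0.271). Ier2 read 864 and 555 against 920.1 and 1321 (0.65, SE 0.37, adjusted p = 0.374). Klf6 was lower, at 219 and 300.1 against 174 and 207 (-0.38, SE 0.37, adjusted p = 0.628). The untested genes were Jun at 18.9 and 18.05 against 201 and 45.3, Ier3 at 45.1 and 37.8 against 111 and 50.6, Myc at 7.69 and 10.6 against 155 and 3.20, Ccn1 at 69.3 and 68.6 against 24.3 and 79.02, and Fos at 47.1 and 13.7 against 21.6 and 32.3. Jun, Junb, Ier3 and Myc were thus highest in labelled replicate 1, and Egr1, Ier2 and Ccn1 in labelled replicate 2.

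Labelled replicate 1 also stood apart in RNA integrity, with 3′ to 5′ ratios of 4.10 for Gapdh and 8.23 for actin, against 0.82 to 1.13 and 1.78 to 2.14 in the other 3 livers. Its median signal over the whole array was also higher after rescaling, at 165 against 126, 129 and 132. Markers of other cell types differed in part. Blood and immune genes summed to 22909 to 31628 in the labelled and 21905 to 25932 in the +/+ livers, which overlap. Endothelial and stellate genes summed to 1614 to 1808 and 1023 to 1246. The first sum is mostly Hba-a1, a haemoglobin gene, at 16117 and 16524. Within it Cd74, of antigen presentation, averaged 1819 and 666 and the macrophage gene Clec4f 2527 and 1631. Lyz2 and C1qb went the other way, at 980 and 1314 and at 351 and 369. The median log2 difference was 0.60 over 10 blood and immune genes tested and 0.45 over 7 endothelial and stellate genes, with none that passed. The part of these values in the early genes was not tested. Among the related lists not 1 had a gene that passed in liver. The feedback genes had a median of 0.72 over 16 tested, the early transcription factors 0.38 over 18 and the heat shock genes -0.33 over 9, against 0.11 for all probe sets. On simulated data of this comparison a change of 1 was found in 28% of cases and one of 2 in 98%. Those data had normal noise at the fitted spread and many planted changes, so real liver changes may be found less often. Junb (_i_at), at 2.26 in the real livers, did not pass.

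**Figure D5:**
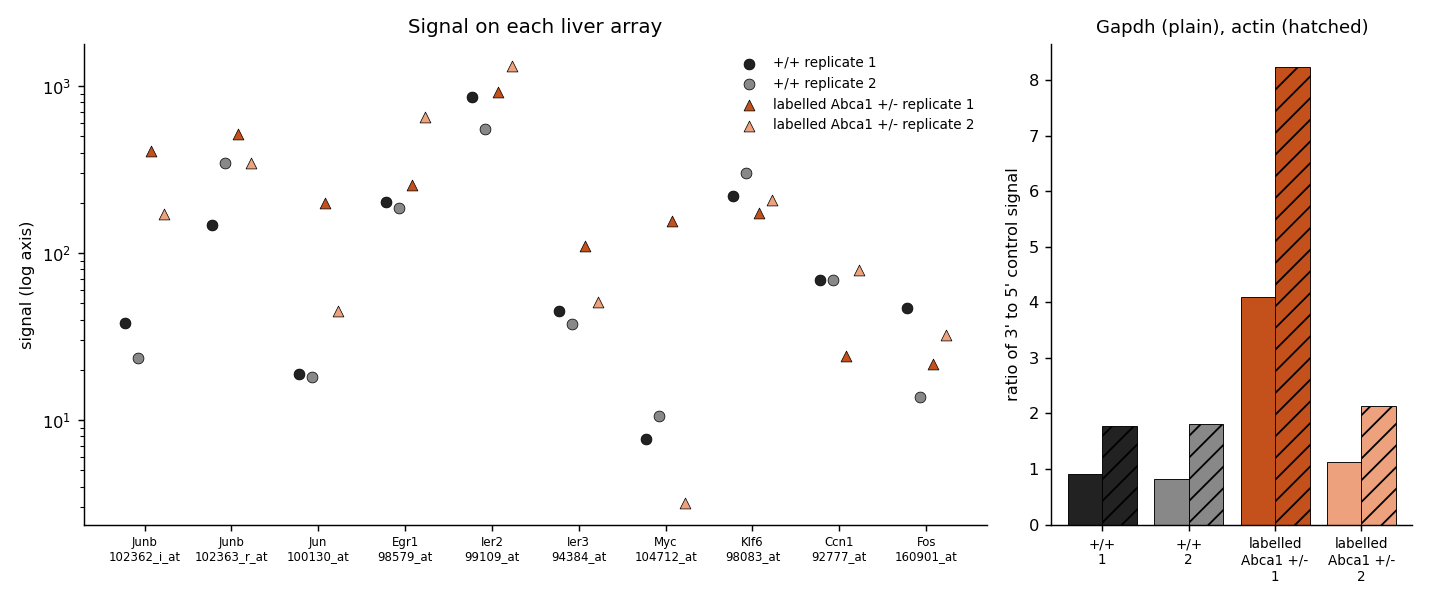
Left, signal on each liver array for 10 probe sets of the immediate early genes (log axis). Right, 3′ to 5′ ratios of Gapdh and actin on the same arrays. Jun, Junb, Ier3 and Myc are highest in labelled replicate 1, the array with ratios of 4.10 and 8.23.

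The Abca1 effect, by label, was set against itself in both tissues in 1 fit of all 16 arrays (7841 probe sets). Junb (_i_at) was the single 1 of 9 probe sets tested whose effect differed, where 9.86% of all did, 6.87% higher and 2.98% lower. Its difference of effects, liver minus ES cells, was 2.28 (SE 0.46, adjusted p = 0.00822), from a log2 effect of -0.01 in ES cells. This fit shares 1 spread between the livers and the less variable ES arrays. In livers fitted alone the liver effect by itself had an SE of 0.53 (adjusted p = 0.113, limma). The SE of 0.46 therefore understates the spread of the livers. Without labelled liver replicate 1 the difference of effects was 1.72, and without replicate 2 it was 2.83. Each of these rests on a single labelled liver. The second Junb probe set did not pass (1.01, adjusted p = 0.129).

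Most immediate early genes were far dimmer in liver than in ES cells. All 9 probe sets tested passed as lower in +/+ liver than in the mean of ESVJ and E14, where 74.5% of all probe sets passed, 26.3% higher and 48.2% lower. The groups did not overlap for 7 of the 9, against 69.4% of all, 24.9% higher and 44.5% lower. The median of all probe sets was itself shifted, by -0.44. Of the 9, Ier3, Myc, Ccn1 and Fos reached the filter through ES cells alone and so had to differ. Junb _i_at reached it through ES cells and the labelled livers, not the +/+ livers, and so had to differ too. Ier3 fell by 3.60 (SE 0.22, adjusted p = 7.82e-11) from 861 to 41.5, Myc by 3.57 (adjusted p = 3.85e-07) from 467 to 9.12, Ccn1 by 2.16 (adjusted p = 8.53e-08) and Fos by 2.08 (adjusted p = 1.7e-05). Junb fell by 2.92 on _i_at and by 1.34 on _r_at (adjusted p = 6.89e-08 and 0.000182).

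Those with signal in both were Ier2, Klf6 and Egr1 beside the second Junb probe set. Ier2 fell by 1.87 (SE 0.21, adjusted p = 3.76e-07), and no liver array reached an ES array. Klf6 fell by 1.39 (SE 0.19, adjusted p = 3.39e-06) against both lines, but against ESVJ alone by 0.38 (adjusted p = 0.119), since the high signal was in E14. Egr1 fell by 0.70 (SE 0.29, adjusted p = 0.0367), and several settings ended this call. It was lost against E14 alone (-0.29, adjusted p = 0.431), with quantile normalization (-0.33, adjusted p = 0.351), with no filter (adjusted p = 0.0503), and without ESVJ replicate 1 or 2, E14 replicate 1 or 3, or either +/+ liver (adjusted p = 0.0515 to 0.158). Tissue and cultured line cannot be told apart in this comparison.

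In the order of their group means, the immediate early genes fell into 3 patterns. Ccn1, Klf6, Jun, Junb (_r_at) and Fos were highest in Cdk4 +/- and next in E14, and these neighbours overlapped except for Klf6 and Jun. Junb (_i_at) was highest in E14, which overlapped Cdk4 +/-. Egr1 was highest in Abca1 +/- ES cells, at 545 ± 63.1 (SD, n = 3), then ESVJ at 461 ± 81.7, and lowest in +/+ liver at 194 ± 11.3 (SD, n = 2), with each group overlapping the next. Ier2, Ier3 and Myc had overlapping neighbours throughout the 4 ES groups and a gap to liver. The spread within ES groups, as the SD of log2 signal, was widest for Fos (0.46) and Jun (0.44) and narrowest for Ccn1 (0.17), where the median of all probe sets tested was 0.21.

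Likeness was measured as Pearson r of log2 signal over the 12 ES arrays among 5589 genes, and is given within the 6 feeder-grown and the 6 feeder-free arrays because the line types form separate clusters. The nearest gene to Ccn1 was Kif20a, a kinesin (r 0.70 and 0.74), then F3, which encodes tissue factor (0.63 and 0.76). Klf6 was nearest to Dsp, desmoplakin (0.92 and 0.91), and Dgka, a diacylglycerol kinase (0.76 and 0.91). Jun was nearest to Npc2 (0.93 and 0.66) and Marcks (0.86 and 0.93). Junb, on its brighter probe set _r_at, was nearest to Ptpn21 (0.89 and 0.84) and Hivep1 (0.93 and 0.60). Fos was nearest to Twist1 (0.88 and 0.95) and Ssbp2 (0.83 and 0.97). Egr1 was nearest to Pde4dip (0.87 and 0.92) and Slc48a1, which followed it in the feeder-free arrays alone (-0.01 and 0.99). Ier2 and Myc shared their nearest gene, Epb41l2 (0.95 and 0.78 with Ier2, 0.96 and 0.50 with Myc), followed by Uri1 for Ier2 (0.92 and 0.75) and Anapc2 for Myc (0.93 and 0.66). Ier3 was nearest to Pigq (0.81 and 0.80) and Fam102a (0.74 and 0.85). Ier2 and Myc followed each other in the feeder-grown arrays (0.99) more closely than in the feeder-free ones (0.36). These values describe few arrays that share lines and scaling, and the genes were picked from a large number.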

How the data were processed

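Per the labels, the authors hybridised RNA to U74Av2 arrays and processed them with MAS 5.0 at default settings; the deposited values are linear intensity, 1 signal per probe set and sample. The authors had scaled the arrays, since the 2% trimmed mean of the deposited intensity was 1501 or 1502 on each. Signals were rescaled to a trimmed mean of 500, and log2(signal + 32) was compared with limma 3.58.1 in R 4.3.3 (eBayes with intensity trend), leaving out 66 control probe sets and those with a mean signal under 100. The 4 ES groups shared a fit (7349 probe sets, 8 residual degrees of freedom), livers alone (7160, 2 degrees of freedom), and comparisons across tissues on all 16 arrays (7841, 10 degrees of freedom). Benjamini-Hochberg adjustment ran across the probe sets in each comparison. Gene symbols came from the array annotation: 10855 probe sets had 1 symbol, 396 several and 1237 none. Related genes were named when they passed, at most 4 per list by smallest p, with Id3 added after its value was seen; the 2 nearest genes per member were named by r. The members and lists were chosen with earlier results of these data known. The procedure was tested on simulated data, drawn with normal noise at the fitted spread and with planted changes. Shares found there can exceed those on real arrays. Alternatives were quantile normalization, other pseudocounts (1, 100), no filter or one of 200, no trend, other sets of arrays, single ES controls and leaving out each array.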

Additional observations from a re-analysis of the deposited data

Results flagged for a closer look

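The Junb (_i_at) difference by Abca1 label was larger in liver than in ES cells when all arrays were fitted together. Its log2 effect in liver minus that in ES cells was 2.28 (SE 0.46, adjusted p = 0.00822, limma). In this contrast 9.86% of all probe sets passed, 6.87% higher and 2.98% lower. Abca1 itself did not follow the liver label. The SE of 0.46 shares the smaller spread of the ES arrays. In livers fitted alone the liver effect had an SE of 0.53 and did not pass (adjusted p = 0.113, limma). The Junb (_i_at) signal was higher in 2 of 2 livers labelled Abca1 +/- than in both +/+ livers, and overlapped between the ES groups. Labelled liver replicate 1, the highest, had a 3′ to 5′ actin ratio of 8.23. Without it a single labelled liver was left, and the difference of effects was 1.72. The part of RNA integrity was not tested.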

How the results depend on the processing

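The number of immediate early probe sets that passed moved by over 1.5 times in 4 cases. Between Cdk4 +/- and E14 cells it rose from 0 to 1 without E14 replicate 3, where 521 probe sets passed across the array against 361. In liver it rose from 0 to 1 with all 16 arrays in 1 fit, where 1970 passed across the array against 1. The remaining cases, in liver and for the difference of the Abca1 effect between tissues, left out labelled liver replicate 2. They rest on a single labelled liver and set the upper ends of those ranges below. Calls across the array also rose in these cases, so the upper ends are not particular to the early genes. With each array left out in turn, the counts ranged from 0 to 1 for Cdk4 +/- against E14, 0 to 0 for Abca1 +/- against ESVJ, 5 to 6 for E14 against ESVJ, 0 to 1 in liver, 8 to 9 for liver against ES cells, 0 to 0 for the difference of the ES mutations, 1 to 4 for the tissue difference and 4 to 5 for Cdk4 +/- against Abca1 +/- cells. Signs turned only for differences that had not passed. Leaving out arrays gave a range of -0.12 to 0.45 for Fos, -0.16 to 0.12 for Junb (_i_at) and -0.032 to 0.22 for Ier2 in Cdk4 +/- against E14, -0.63 to 0.019 for Jun in Abca1 +/- against ESVJ, and -0.22 to 0.17 for Ier2 and -0.18 to 0.37 for Myc in E14 against ESVJ. Without the arrays of high BioB control signal, an alternative chosen after seeing the data, Junb (_i_at) was 0.12 in the first and Ier2 0.0081 in the last of these comparisons. The cause was not tested. No paired analysis was possible because the labels give no replicate numbers: those used here only name arrays in their listed order. Precision is limited by 2 or 3 arrays a group: the median SE of a log2 difference was 0.17 in ES cells and 0.38 in liver, and 7 of 12 probe sets were too dim to test in liver.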
